A study of Homo sapiens with 24 samples.

Results

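HEY2 and 9 other genes of the Notch pathway were examined for H3K4me3, a histone mark of active promoters, in the human beta cell line EndoC-βH3. The 10 genes were the transcription factors HEY2, HEY1, HES1 and HES5, the receptors NOTCH1 and NOTCH2, and the ligands DLL1, DLL4, JAG1 and JAG2. They were chosen by name, with HEY2 included for the place of its promoter in the authors' own comparison of senescent with non-senescent cells, whose values are not used here. For each gene, regions that overlapped the 2 kb before or after any annotated transcription start site of the gene were taken as promoter regions, and the strongest of them by mean normalized count was its main region. By this rule 7 of the 10 genes had a promoter region, with 12 regions in all, among 15085 of 20020 protein-coding genes (75.3%) and 97545 regions in the whole series.

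H3K4me3 was profiled by MINT-ChIP, in which the chromatin of each sample is barcoded before it is pooled for immunoprecipitation. There were 4 non-senescent samples, which received the control treatment, and 4 senescent samples, treated with 4-hydroxytamoxifen for 3 weeks, each of 500000 cells of the genotype labelled WT. The line was derived from a fetal human pancreas and immortalized with hTERT and the SV40 large T-antigen, and in the senescent cells these transgenes had been removed by CreER, so that loss of the transgenes, tamoxifen and senescence cannot be told apart. All samples come from this one line, and the labels do not say whether they were separate cultures. The 16 samples of other marks were not analysed here.

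The values are the authors' mean normalized counts, 1 for each region over the samples of the H3K4me3 comparison. They hold no value for a single sample, so the levels below describe senescent and non-senescent cells together, without a replicate error, and no difference between the states was tested. The depth of each sample is unknown. Across all regions the mean normalized count had a median of 4.402, and the regions had a median width of 677 bp. Because a wide region collects more reads, levels of different genes are compared as mean normalized count per kb of region. The place of a region among all genes by its mean normalized count is given beside it and depends on width.

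In Notch signalling, a ligand of the Delta or Jagged family on one cell binds a NOTCH receptor on its neighbour. The receptor is then cut by ADAM proteases and γ-secretase, and its intracellular part enters the nucleus, where it joins the DNA-binding protein RBPJ and activates genes of the HES and HEY families. HES and HEY proteins are basic helix-loop-helix repressors, and in the developing pancreas HES1 restrains the endocrine differentiation driven by NEUROG3.

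The promoter sequences show how these genes differ before any signal is considered. The 250 bases before the start site are given for 5 genes, from RefSeq on GRCh38.p14 and in the direction of transcription: HEY2, whose promoter led to the choice of these genes, at chr6:125749382-125749631 (plus strand), HES1 at chr3:194135898-194136147 (plus strand) and HES5 at chr1:2530264-2530513 (minus strand) as effectors with and without a promoter region, and the ligand genes DLL4 at chr15:40929090-40929339 (plus strand) and JAG2 at chr14:105168777-105169026 (minus strand), which had the widest region and none. Capitals mark, on either strand, the RBPJ core TGGGAA (and its extended form TGTGGGAA), the CCAAT box and the sites CACGCG and CACGAG, which belong to the class C and N-box sequences bound by HES proteins.
HEY2: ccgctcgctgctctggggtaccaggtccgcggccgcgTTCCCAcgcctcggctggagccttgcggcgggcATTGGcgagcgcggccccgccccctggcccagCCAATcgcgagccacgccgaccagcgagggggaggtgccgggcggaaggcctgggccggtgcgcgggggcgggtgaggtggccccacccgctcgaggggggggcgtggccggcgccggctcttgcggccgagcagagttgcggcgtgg
HES1: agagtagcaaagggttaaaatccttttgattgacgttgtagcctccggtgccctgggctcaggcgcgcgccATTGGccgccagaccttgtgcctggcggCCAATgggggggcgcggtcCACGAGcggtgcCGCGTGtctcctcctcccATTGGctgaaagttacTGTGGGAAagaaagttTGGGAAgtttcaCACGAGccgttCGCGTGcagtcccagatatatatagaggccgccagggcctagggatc
HES5: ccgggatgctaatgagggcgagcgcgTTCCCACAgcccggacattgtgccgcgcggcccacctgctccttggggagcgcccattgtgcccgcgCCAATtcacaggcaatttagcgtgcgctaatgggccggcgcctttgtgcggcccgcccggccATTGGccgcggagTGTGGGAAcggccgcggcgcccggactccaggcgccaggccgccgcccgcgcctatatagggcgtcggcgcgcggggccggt
DLL4: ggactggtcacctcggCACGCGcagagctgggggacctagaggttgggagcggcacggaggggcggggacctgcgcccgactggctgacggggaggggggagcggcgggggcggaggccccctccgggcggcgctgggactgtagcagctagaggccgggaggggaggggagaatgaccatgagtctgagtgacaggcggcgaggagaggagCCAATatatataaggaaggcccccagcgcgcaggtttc
JAG2: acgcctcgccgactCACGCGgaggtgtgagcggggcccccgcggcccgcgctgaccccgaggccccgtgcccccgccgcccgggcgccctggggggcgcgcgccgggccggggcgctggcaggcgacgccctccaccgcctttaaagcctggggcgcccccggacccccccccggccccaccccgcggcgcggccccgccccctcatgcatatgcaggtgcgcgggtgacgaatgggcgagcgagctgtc

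Of the 10 genes, 8 were found in the RefSeq promoter table, which held 15345 promoters of protein-coding genes. HEY1 and DLL1 were absent from it and were not searched for motifs. The RBPJ core TGGGAA was found in HEY2, HES1 and HES5 and in 20.1% of all promoters, counting both strands. HEY2 held it once, on the minus strand at positions −213 to −208 from the start. HES1 held it at −84 to −79 and at −70 to −65, both on the plus strand, and HES5 held it at −224 to −219 on the minus strand and at −80 to −75 on the plus strand. At least 2 cores, as in HES1 and HES5, were found in 2.66% of promoters. The extended form TGTGGGAA, which includes the core, was found in HES1 and HES5 and in 1.28% of promoters. A pair of cores on opposite strands and 13 to 20 bases apart was found in 10 promoters (0.0652%) and in none of the 8 genes. Only exact copies of TGGGAA were counted, and other forms of the site were not searched. The lack of an exact pair therefore does not show that HES1 or another gene lacks a paired site.

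The sites bound by HES and HEY proteins were spread otherwise. The E-box CACGTG was found in 7.85% of promoters and in none of the 8 genes. CACGCG was found in HES1, DLL4 and JAG2 and in 12.7% of promoters, and CACGAG was found in HES1 alone of the 8 genes and in 6.29% of promoters. HES1 held 2 copies of each, the farthest of them at −132 to −127. The CCAAT box, a common promoter element, was found in HEY2, HES1, HES5 and DLL4 and in 34.8% of promoters, and HEY2 held it at −180 to −176 on the minus strand and at −148 to −144 on the plus strand. The letters TATAAA, a form of the TATA box, were found in none of the 8 genes and in 9.23% of promoters. Other forms were not searched, such as the TATATAA in the DLL4 sequence printed above. The lack of TATAAA therefore does not show that a promoter lacks a TATA box. Sites of E2F, the factor that Rb restrains, were searched as TTTGGCGC (0.749% of promoters), TTTGGCGG (0.736%) and TTTCCCGC (1.88%). Of the 8 genes, NOTCH2 held TTTCCCGC and no gene held the others. These matches describe letters in a window and do not show that a factor was bound.

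The same stretches differed in base composition. In HEY2 79.2% of the 250 bases were G or C, with 35 CpG dinucleotides, against a median of 62.4% and 17 CpG over all promoters. JAG2 had the highest GC content of the 8 genes (81.6%, with 38 CpG), followed by HEY2, NOTCH1 (76%) and, at 72.8% each, HES5 and NOTCH2. DLL4 had 70% and JAG1 68.4%. HES1 was the lowest, with 59.2% and 18 CpG.

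**Figure D1:**
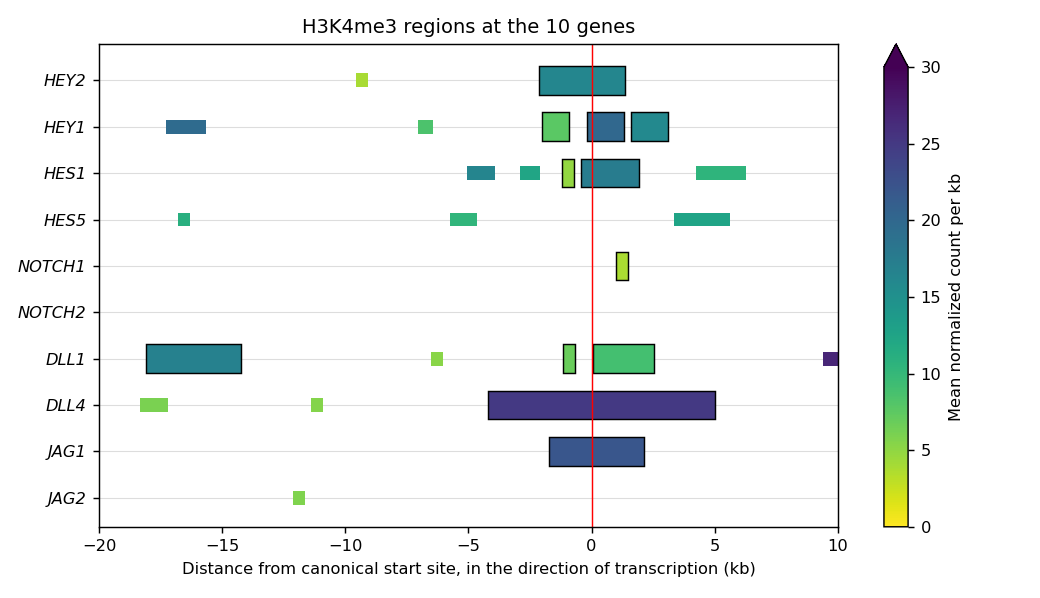
H3K4me3 regions at the 10 genes, placed by their distance in kb from the canonical start site (red line), with transcription to the right. Outlined bars are promoter regions, thin bars are other regions, and the colour gives the mean normalized count per kb. HEY2, HEY1, HES1, DLL4 and JAG1 have a region across the start site, the DLL1 main region lies upstream, and HES5, NOTCH2 and JAG2 have no promoter region.

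HEY2, a repressor first known from heart and vessel development, had a single promoter region on the plus strand of chromosome 6. In the coordinates of the authors' hg38 table it runs from 125747516 to 125750995. The region reached from 2116 bp before the canonical start site to 1363 bp past it, so that it covered the promoter sequence printed above. Its mean normalized count was 56.6, which placed it at percentile 55.6 of the 15085 genes with a main region, near the middle. Per kb its level was 16.3, below the median of 19.0 over all genes and at percentile 39.2, while its width of 3479 bp was at percentile 73.4. The HEY2 region was therefore wider than most main regions and less dense than most. The antisense long noncoding RNA HEY2-AS1 also starts inside it, and signal at the 2 starts cannot be separated.

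The HEY2 region was not the strongest in its surroundings. Within 50 kb of the gene there were 6 other regions, of which 3 were no promoter of a protein-coding gene. The strongest of these lay 25528 to 28253 bp downstream of the start and had a mean normalized count of 30.2 (11.1 per kb). The other 3 were promoter regions of the neighbouring gene NCOA7, a nuclear receptor coactivator, and the strongest of them reached 78.1 (35.1 per kb). The promoter region of HEY2 held 62.8% of the summed count of its own and the non-promoter regions.

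HEY1, the closest relative of HEY2 among the 10 genes, lies on the minus strand of chromosome 8 and had 3 promoter regions. The main one, from 79766458 to 79767940, covered all 12 annotated start sites and had a mean normalized count of 29.6 over 1482 bp. A second, from 1593 to 3102 bp past the canonical start, had 23.9, and the last, from 2010 to 929 bp before it, had 8.28. The main region thus held 47.9% of the sum of 61.9. Per kb the main HEY1 region reached 20.0015, at percentile 53.7. A separate region 17273 to 15644 bp upstream had a mean normalized count of 32.0 (19.6 per kb).

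HES1, the effector best known from pancreas development, had a main region on the plus strand of chromosome 3, from 194135708 to 194138058. It reached from 440 bp before the start to 1910 bp past it, with a mean normalized count of 41.1 over 2350 bp and 17.5 per kb, at percentile 43.8. A further 500 bp region before it had 2.41. There were 8 non-promoter regions within 50 kb of the gene, with a summed mean normalized count of 98.4 against 43.5 for its own 2 regions, which held 30.7% of the total. The nearest of the 8 (9.94) ended 2097 bp before the start, just outside the 2 kb limit for a promoter region. The strongest, 23794 to 22770 bp upstream, had 26.7, and its level of 26.1 per kb was above that of the HES1 main region. Others lay 5076 to 3929 bp upstream (18.7) and 4249 to 6285 bp downstream (21.4).

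HES5, an effector known from neural progenitors, had no region within 2 kb of its start at position 2530263 on the minus strand of chromosome 1. The nearest regions lay 3360 to 5606 bp downstream, with a mean normalized count of 28.0, and 5760 to 4634 bp upstream, with 11.7. The downstream region is a promoter region of PANK4, a gene of the pantothenate kinase family. The HES5 promoter, printed above, carried the same extended RBPJ sequence as HES1. H3K4me3 at HES5 was not detected as a region, at a depth that is unknown.

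Neither receptor gene had a region over its canonical start site. NOTCH1, on the minus strand of chromosome 9, had one 500 bp promoter region from 136544563 to 136545063, which began 985 bp past the canonical start and covered none of its 11 annotated start sites. Its mean normalized count of 1.88 was below the median of all regions and at percentile 1.505 of the main regions, and its 3.76 per kb was at percentile 1.78. NOTCH2, on the minus strand of chromosome 1 with its start at 120069662, had no promoter region, and within 50 kb of the gene there were 4 regions, of which the strongest had 27.4 and 1, with 9.99, lay inside the gene.

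NOTCH2 differed from the other 9 genes in how often its start site sequence occurs in the genome. In the 500 bp on either side of its start, stretches of 24 bases had a median of 5 copies in hg38, and 5.93% occurred once. In the other 9 genes the median was 1 copy and at least 98.2% of stretches occurred once. Reads from such copies cannot be assigned to one place by short sequence alone. The handling of reads with several matches is not given in the sources used here, and its part in the absence of a region was not tested.

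The ligand genes ranged from the widest main region of the 10 genes to none. DLL4, a Delta ligand best known from blood vessels, had a region on the plus strand of chromosome 15 from 40925150 to 40934372. It reached from 4190 bp before the start to 5032 bp past it of the 9734 bp gene. Its width of 9222 bp was at percentile 99.3 of all main regions and was reached or passed in 112 genes. Its mean normalized count of 230 was at percentile 98.3. Per kb it reached 24.97, at percentile 69.6, so that DLL4 stood far higher by width than by density. The 9 non-promoter regions within 50 kb had at most 7.95.

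JAG1, a Jagged ligand mutated in Alagille syndrome, had a single region on the minus strand of chromosome 20 from 10671886 to 10675742. It reached from 1743 bp before the start to 2113 bp past it, with a mean normalized count of 84.9 over 3856 bp. Its 22.02 per kb was at percentile 60.4, above the all-gene median. The gene stood almost alone, since its promoter region held 94.7% of the summed count of its own and the non-promoter regions within 50 kb. A long noncoding RNA, ENSG00000270792, also starts inside the region.

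DLL1, the Delta ligand that is itself induced in endocrine progenitors, had 3 promoter regions on chromosome 6, and its main value does not describe its canonical promoter. The main region, from 170305302 to 170309182, had a mean normalized count of 65.9 (17.0 per kb) but lay 14224 to 18104 bp upstream of the canonical start on the minus strand. It held 1 other annotated start of DLL1 and is also a promoter region of FAM120B, a neighbouring gene. Next to the canonical start at 170291078, a region that began 51 bp past it had 22.2 over 2479 bp (8.96 per kb), and a start of FAM120B lay inside this region too. The last region, 1170 to 670 bp upstream, had 3.41. Within 50 kb of the gene 8 non-promoter regions summed to 147, and the strongest, 9397 to 11306 bp past the start, had 51.0 (26.7 per kb).

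JAG2, a Jagged ligand, had no promoter region at its start at 105168776 on the minus strand of chromosome 14. The nearest region, 12132 to 11632 bp upstream, had a mean normalized count of 2.91 and is a promoter region of NUDT14, and the strongest of the 3 non-promoter regions had 14.7.

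**Figure D2:**
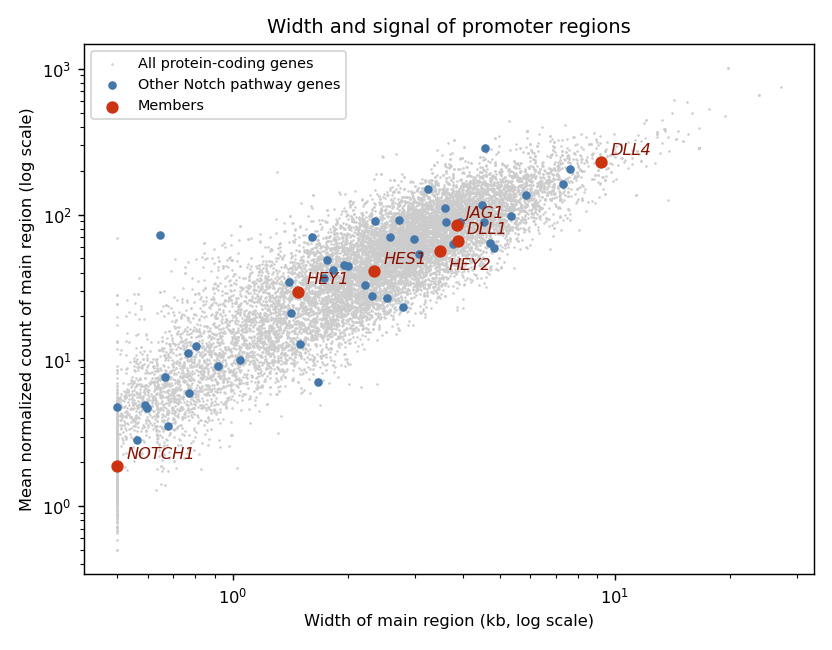
Mean normalized count against width in kb of the main promoter region, both on log scales, for all 15085 protein-coding genes with a region (grey), other Notch pathway genes (blue) and the 7 genes with a region (red). DLL4, with 9222 bp and 230, lies near the upper end, NOTCH1, with 500 bp and 1.88, near the lower end, and HEY2, with 3479 bp and 56.6, between them.

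Among the 7 genes with a region, the order per kb was DLL4 (24.97), JAG1 (22.02), HEY1 (20.0015), HES1 (17.5), DLL1 (17.0), HEY2 (16.3) and NOTCH1 (3.76). Whether neighbours in this order differ cannot be said without values per sample. Of the 7, 3 lay above the all-gene median of 19.0, and their median was 17.5. Thus the 10 genes did not share a high density of H3K4me3, and DLL4 and JAG1 lay above HEY2 by this measure. The canonical start was covered in 5 of the 10 genes, against 53.1% of all protein-coding genes.

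The rest of the pathway was described with a list of 60 genes in 9 roles, which includes the 10. A promoter region was found in 52 of them (86.7%), against 75.3% of all genes, and the canonical start was covered in 30 (50.0%). Of the 52, 25 lay above the all-gene median per kb, and their median was 17.8. Without the 10 genes, 45 of 50 had a region. In 26 of the 52 the main region did not cover the canonical start, so that its level need not be that of the canonical promoter. The 8 genes without a region were NOTCH2, JAG2, DTX2, HES2, HES3, HES4, HES5 and NRARP, of which 4 belong to the HES family.

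The receptor genes stood low. The 3 with a region lay below the lower quartile of all genes, 12.3 per kb. Per kb NOTCH3 reached 9.52 and NOTCH4 11.9, in a region shared with GPSM3. These regions lay 19260 and 26707 bp past the canonical start, and no receptor gene had its canonical start covered. The machinery that cuts the receptor stood higher. All 9 genes of receptor processing had a region, their median was 23.3 per kb, and 6 of the 9 lay above the all-gene median. The γ-secretase subunit genes NCSTN (62.3 per kb, at percentile 99.5, shared with COPA) and APH1A (46.2, shared with C1orf54) led, and the lowest was FURIN (8.65), a protease that cleaves the receptor precursor. The FURIN region began 3526 bp past its canonical start. PSEN2 (14.7) and APH1B (16.8), also of γ-secretase, lay below the all-gene median too. The PSEN2 region missed the canonical start by 282 bp. ADAM10, the protease that sheds the receptor, had 23.3. Among the genes of receptor glycosylation, the fucosyltransferase POFUT1 had 27.1 per kb, in a region shared with PLAGL2. The fringe genes LFNG, MFNG and RFNG had between 7.71 and 10.0. The RFNG region is shared with GPS1, and the LFNG and RFNG regions missed the canonical start by 349 and 401 bp.

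In the nucleus, RBPJ, the DNA-binding partner of the receptor, had 14.7 per kb in a region that did not cover its canonical start. The coactivator genes MAML1, MAML2 and MAML3 had 27.5, 33.8 and 22.3, and the acetyltransferase genes KAT2B and EP300 had 43.7 and 25.7. The KAT2B region also missed the canonical start, by 599 bp, and the MAML1 region missed it by 405 bp. RBPJL, the paralogue of RBPJ used in acinar cells, had 4.23, in a region that began 3967 bp past its canonical start. Of the genes that control trafficking and turnover, the ubiquitin ligase gene NEURL1 was highest (31.0, in a region 62066 bp from its canonical start) and DTX1 lowest (5.08), and DLL3 among the ligands had 24.5. The noncanonical ligand genes DLK1, DLK2 and DNER had at most 11.6, in regions that missed the canonical start by 535, 159 and 619 bp.

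The HES and HEY family held the widest spread of levels. HES6, which opposes HES1 and favours neuronal differentiation, had 113 per kb in a region of 647 bp, at percentile 99.98 of all genes. HEY2, HEY1 and HES1 lay between 16.3 and 20.0015, HES7 had 13.6, and HEYL had 8.40, in a region 139 bp from its canonical start. The HES6 region lay 138 bp from its canonical start, and its high density belongs to a narrow region with a mean normalized count of 72.8.

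**Figure D3:**
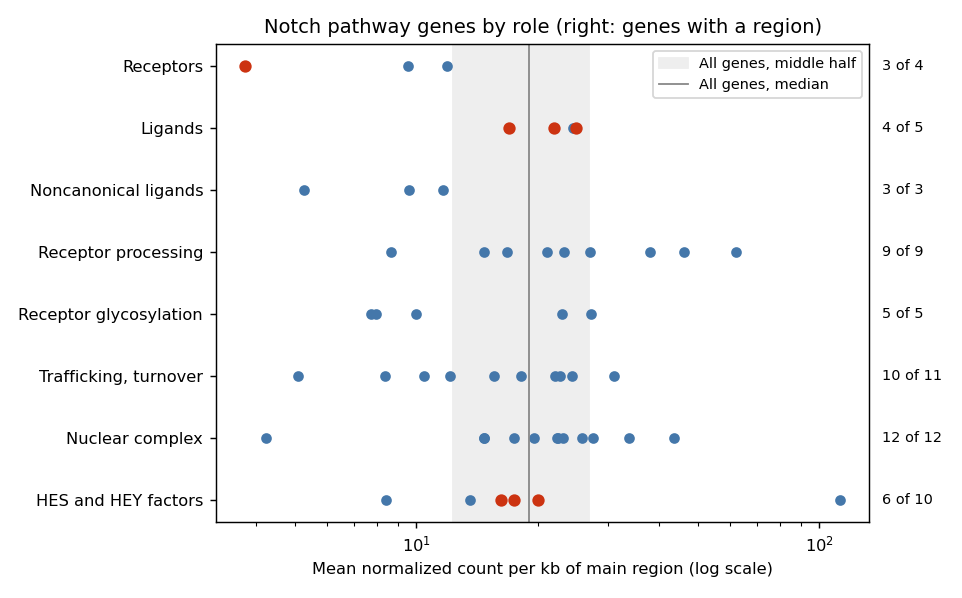
Mean normalized count per kb (log scale) of the main promoter region of Notch pathway genes by role, with the 7 genes in red and others in blue. The line and band give the median (19.0) and the middle quartiles (12.3 to 26.8) of all genes, and the numbers at the right count genes with a region. The 3 receptor genes lie below the band, NCSTN and APH1A of receptor processing lie above it, and HES6 lies farthest to the right. NRARP has no region and is not drawn.

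The labelled cell type was checked with marker genes. Of 15 beta cell genes, 14 had a promoter region, their median was 25.1 per kb, and 10 of the 14 lay above the all-gene median. The islet transcription factor genes ISL1 (38.1 per kb), NEUROD1 (28.8), PAX6 (27.8), NKX2-2 (25.4) and PDX1 (22.5) were among these. The 4 below it were INS (14.003, in a region shared with IGF2 and INS-IGF2), ABCC8 (11.1), KCNJ11 (10.6) and IAPP (7.56). The INS, ABCC8 and KCNJ11 regions missed the canonical start, by 169, 114 and 1670 bp. MAFA had no region here, which at unknown depth does not show that the mark is missing. Its start site had 77.4% GC. Among all genes with 75 to 80% GC, 84.8% had a region within 2 kb and 7.15% a covered canonical start. The part of GC content at MAFA was not tested. Of 27 markers of alpha, delta, acinar, duct, endothelial, fibroblast and immune cells, 17 had a region, with a median of 7.94 per kb. Of these, IRX2 (31.5 per kb) and CD68 (31.9, shared with MPDU1) lay above the all-gene median. Their main regions missed the canonical start by 739 and 2591 bp. Of the 4 endothelial genes, CDH5 and VWF had no region, while KDR had 15.4 per kb and PECAM1 15.3. The PECAM1 region lay 21006 bp from its canonical start. A region covered the canonical start in 12 of the 15 beta cell genes and in 5 of the 27 other markers.

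Base composition moved with the presence of regions at the start site. In the 500 bp on either side of the canonical start, 71.4% of bases were G or C in both HEY2 and HEY1, 71.6% in HES5, 76.7% in NOTCH1 and 81.7% in JAG2, against a median of 61.3% over all genes. The canonical start was covered in 73.6% of genes with 60 to 65% GC, in 39.1% of those with 70 to 75%, in 7.15% of those with 75 to 80%, and in none of 119 genes at 80% or above. A region within 2 kb of any start was still found in 83.2% of these 119 genes. HEY2 and HEY1 thus belonged to the 39.1% with a covered start in their class, and HES5, NOTCH1 and JAG2 did not have one. In the class of 65 to 70% GC 67.9% of starts were covered. DLL4 and JAG1 were among these, but NOTCH2 (68.2% GC) and DLL1 (69.7%) were not. HES1 had 46.9% GC, in a class where 25.7% of starts were covered. In the list of 60 genes, 7 of 25 starts with at least 70% GC were covered (28.0%, against 29.0% of all such genes), and 23 of 35 below it (65.7%, against 58.0%). The part of GC content in the lack of a region over the canonical starts of HES5, NOTCH1, NOTCH2, DLL1 and JAG2 was not tested.

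**Figure D4:**
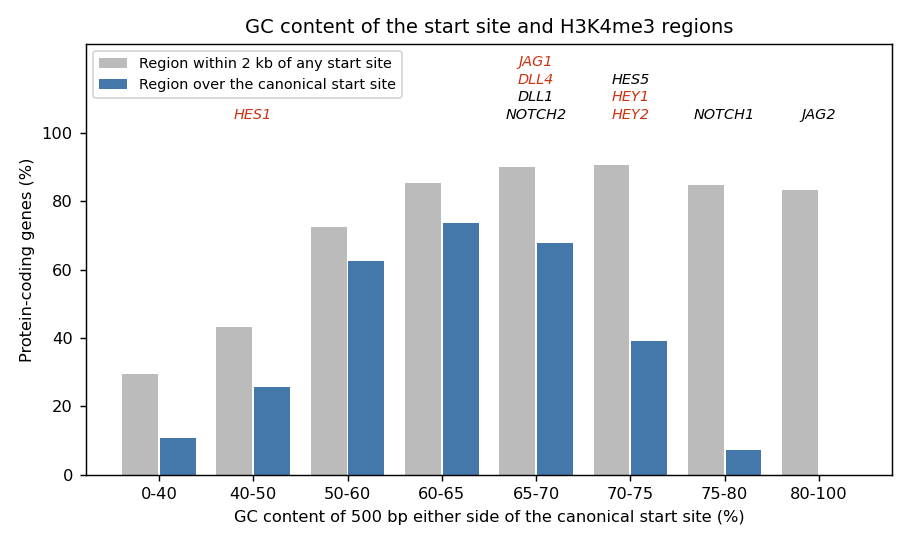
Share of protein-coding genes (%) with a region within 2 kb of any start site (grey bars) and with a region over the canonical start site (blue bars), by GC content of the 500 bp on either side of that site. Gene names stand above their class, in red where the start was covered. The blue bars drop from 73.6% at 60 to 65% GC to 7.15% at 75 to 80% GC, while the grey bars from 60% GC up lie between 83.2% and 90.6%.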

How the data were processed

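MINT-ChIP of H3K4me3 covered 4 samples of each state of the EndoC-βH3 line. Alignment to hg38 was done by the authors with Bowtie2 and samtools, peak calling with HOMER and the comparison of states with DESeq2. Versions, the handling of reads with several matches and the merging of peaks are not given in the sources used here. The deposited signal of a region is the authors' mean over samples of DESeq2-normalized counts, and the number of samples in it is not stated. Another 5 columns hold the authors' own comparison (log2 fold change, its standard error, a test statistic, and raw and adjusted p-values) and were not used. No test was therefore made. Coordinates are printed as deposited, and a region's width is its end minus its start.

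GENCODE release 44 gave the start sites of all transcripts of protein-coding genes, and the canonical start is that of the Ensembl canonical transcript. A percentile is the share of genes whose main region is lower, and a region shared by several genes counts for each of them. Promoter sequences came from RefSeq. The 10 genes, the list of 60 genes and the markers were chosen with earlier results of these data known. All 10 genes were named, and of the lists the highest and lowest of a role, those without a region, and others picked for their role with their values in view. Single results were recomputed under other settings, in 12 pairings of a result with a setting and in 3 more chosen after seeing the data. Linking of regions to genes was tested on simulated data. A planned comparison of the proteins was not made here. Calculations used numpy 2.4.6 and pandas 2.3.3 under Python 3.11.15, and figures matplotlib 3.10.9.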

Additional observations from a re-analysis of the deposited data

How the results depend on the processing

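The median of the mean normalized counts over the 7 genes with a region, 56.6, moved to 48.8 with a window of 5 kb, which added the PANK4 region (28.0) as the value of HES5. It was 61.9 when all regions of a gene were summed, and 41.1 with the canonical start sites alone, where DLL1 dropped from 65.9 to 22.2. It did not move with a window of 1 kb, with the region nearest a start, or with transcripts annotated as protein-coding, the last chosen after seeing the data. The median percentile, 55.6, became 58.8 with each distinct region counted once and 43.8 when ranked per kb. It was 55.6 among genes with a mean normalized count of at least 5, which leaves out NOTCH1. With that minimum the percentiles of the 6 remaining genes all moved down, that of HEY2 from 55.6 to 52.2. The number of Notch pathway genes with a region, 52, was 50 and 54 with windows of 1 and 5 kb, 46 with a minimum of 5 and 50 with protein-coding transcripts. It was 30 when the region had to cover the canonical start, an alternative chosen after seeing the data. The share of promoters with TGGGAA rose from 20.1% to 22.6% when 50 bases past the start were included.

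No paired analysis was possible because the values hold 1 mean per region and no sample of its own. For the same reason no replicate was left out, no error is given and no other normalization was tried. Depth is unknown, so the lack of a region at HES5, NOTCH2 and JAG2 is a lack of detection and does not show that the mark is missing.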
